A study of Mus musculus with 2 samples.

Results

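Receptor tyrosine kinases are the cell-surface receptors for growth factors: a ligand outside the cell brings receptor chains together, the kinase domains inside phosphorylate each other on tyrosine, and adaptor proteins dock on the phosphorylated tails and pass the signal to RAS and to PI3 kinase. In the liver, Met and its ligand HGF serve hepatocyte growth and regeneration, and the EGF receptor acts beside it. ETV4, the factor knocked down here, belongs to the PEA3 group of ETS transcription factors, which lie downstream of receptor and RAS signalling. The description below covers 10 receptor genes, Met, Axl, Egfr, Erbb2, Erbb3, Fgfr1, Igf1r, Pdgfrb, Epha2 and Epha4, taken by gene symbol out of 55367 symbols in the deposited data. These members, and the lists of related genes below, were chosen with earlier results of these data known. Their shares of called genes are therefore descriptions and not tests. Each of the 10 symbols had 1 record.

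The data are RNA-seq libraries of LPC-HRas cells, a mouse line that the labels call hepatocellular carcinoma cells from liver, infected with lentivirus carrying the hairpin shETV4, against Etv4, or the control hairpin shRFP. Both groups are the same line, and the labels name 1 hairpin for each. With 1 library for each group, the differences have no replicate check and none was tested, and the spread of every value between cultures is unknown. Values are TPM, transcript abundance scaled to transcript length and to a total of 1000000 per library; TPM keep no record of depth, so the depth of both libraries and the counting error of each value are unknown as well. Genes with 1 TPM or more in either library are spoken of as measured. To set the libraries side by side, 1 TPM was added to each value and the log2 of the shRFP value was taken from the log2 of the shETV4 value. The added 1 TPM shrinks the differences of low genes. Genes at -1 or below on this scale are called lower and those at 1 or above higher, which amounts to 2-fold. "Within 2-fold" refers to this scale, whereas a fold given beside TPM values is their plain ratio, so a low gene can be past 2-fold by its ratio and not be called.

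Etv4 was at 16.2 TPM in shETV4 cells and 73.2 TPM in shRFP cells. Of 7 hepatocyte marker genes none was measured, with sums of 0.31 and 0.19 TPM in shETV4 and shRFP cells and Alb listed at 0 in both, so the defining markers of hepatocytes were at or near 0 in both libraries. Of 9 progenitor and biliary markers 4 were measured, Spp1 the highest at 476 and 423 TPM in shETV4 and shRFP cells. Sox9 was at 45.4 and 28.0 TPM, Krt19 at 36.25 and 27.5 TPM and Krt18 at 30.9 and 49.1 TPM. Epcam, at 0.23 and 0.16 TPM, was not measured. Of 10 stellate cell and fibroblast markers 6 were measured, with Lrat listed at 0 in both libraries. Their sum was 1533 TPM in shETV4 and 1908 TPM in shRFP cells, lower in shETV4 cells through Acta2 alone (655 TPM in shETV4 cells and 1256 TPM in shRFP cells): the other 5 measured markers had differences above 0, and the median of the 6 was 0.38. Pdgfrb, itself on that list, is described below. None of 6 endothelial markers was measured (0.88 and 0.50 TPM summed in shETV4 and shRFP cells), and of 7 immune markers Cd14 and Cd68 were, with Ptprc at 0.03 TPM in shETV4 cells and listed at 0 in shRFP cells. In a bulk library, fewer cells of a type and less RNA per cell cannot be told apart.

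Met, the receptor for hepatocyte growth factor, and Epha4, an ephrin receptor, were the members called lower in shETV4 cells. Met was at 6.07 TPM in shETV4 cells and 19.8 TPM in shRFP cells, 3.27-fold lower, and Epha4 was at 1.07 TPM in shETV4 cells and 4.44 TPM in shRFP cells, 4.15-fold lower. The other 7 measured members lay within 2-fold, from -0.28 for Igf1r to 0.62 for Fgfr1. Erbb3 did not reach 1 TPM in either library. Thus 2 of the 9 measured members were called lower and 0 higher, while over all 12951 measured genes 7.06% were called lower and 3.36% higher. Of all 58 mouse receptor tyrosine kinase genes 29 were measured, and the same 2 were called lower. That is 6.90%, near the share of all genes. With the line drawn at 1.5-fold Fgfr1 was called higher as well, beside 8.59% of all measured genes called higher and 20.0% lower, and at 3-fold no member was called, beside 1.24% in each direction. The median difference of the 9 was 0.04, beside -0.10 over all measured genes.

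**Figure D1:**
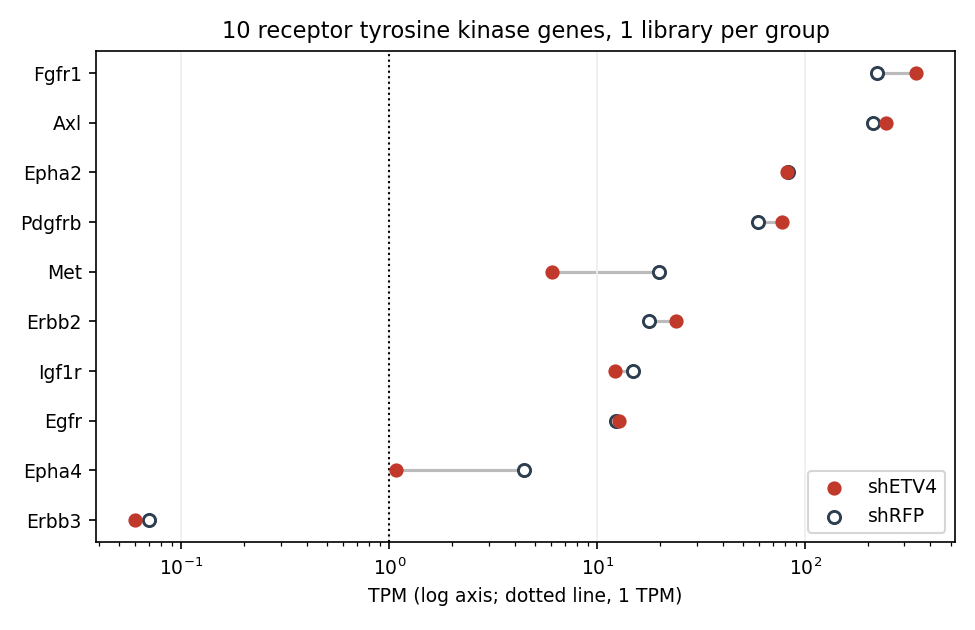
TPM of the 10 receptor genes on a log axis, filled points shETV4 and open points shRFP, 1 library each, ordered by the level in shRFP cells. Met and Epha4 have the widest gaps, at 6.07 and 1.07 TPM in shETV4 cells against 19.8 and 4.44 TPM in shRFP cells, and Erbb3 lies below 0.1 TPM in both.

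Met (ENSMUSG00000009376) lies on the plus strand of mouse chromosome 6, from 17463800 to 17573980 in GENCODE M21 (GRCm38), and its exons overlap no exon of another gene. Its difference of -1.56 had the rank 177 from the lowest among the 12951 measured genes, and it was the lowest of the 29 measured receptor tyrosine kinase genes on that scale. Epha4 was lower than Met by plain ratio, after GC adjustment and with 0.1 TPM added in place of 1. In shRFP cells Met was the fifth of the members by level; in shETV4 cells Erbb2, Egfr and Igf1r stood above it and it was the eighth.

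Differences between these libraries followed base composition, with a rank correlation of 0.52 between difference and transcript GC content across 12932 genes, which are not independent replicates. Met, at a median transcript GC content of 45.6%, falls in the third decile from the lowest GC, where the median difference was -0.37 and 95 of 1293 genes, 7.35%, were called lower. With the running median for its GC content taken off, Met was at -1.18 and still past 2-fold. Epha4, at 49.8% GC, falls in the fifth decile, where the median was -0.10 and 3.40% of genes were called lower, and it was at -1.34 after the same subtraction. Both were thus past 2-fold on the scale that removes the GC trend, on which 2.31% of all genes were called lower, with 299 genes lower and 517 higher in all.

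**Figure D2:**
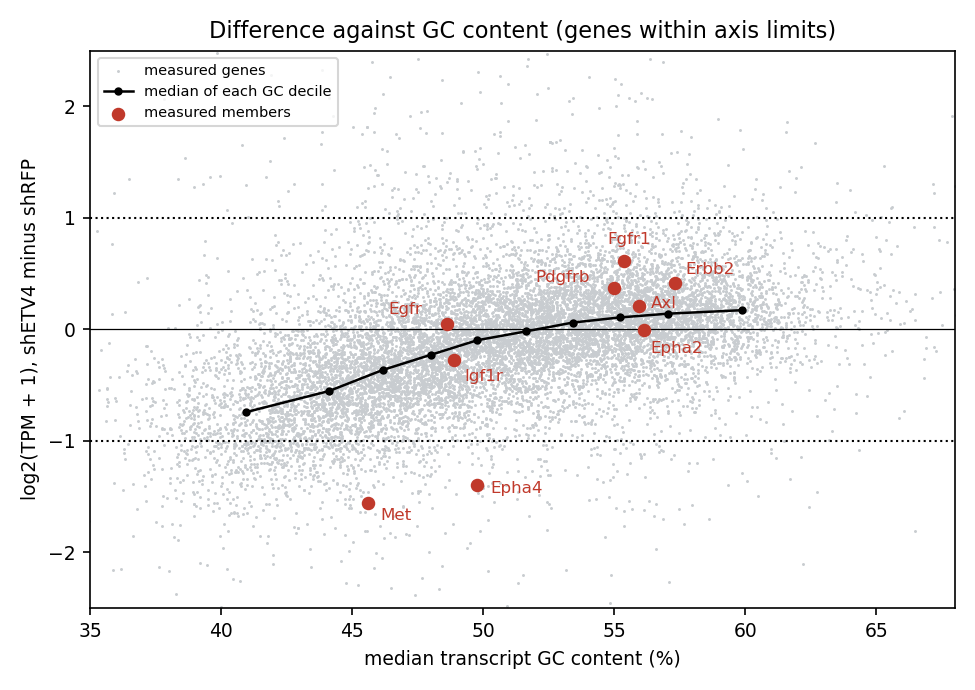
Difference of each measured gene (vertical axis, log2(TPM + 1), shETV4 minus shRFP) against its median transcript GC content in percent (horizontal axis), with the 9 measured members in red, the median of each GC decile in black and dotted lines at 2-fold; genes beyond the axis limits are not drawn. Met and Epha4 lie below -1 and away from the black line, while the other members lie within 2-fold.

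The bases before the Met transcription start are shown because Met was called lower, with those of Epha4, the other member called lower, and those of its relative Epha2, whose level hardly differed. Each is the stretch of 250 bases before the RefSeq start (GRCm38.p6), 5′ to 3′ on the gene's own strand, with capitals marking the ETS core letters GGAA, or TTCC where the core is on the opposite strand. GENCODE places the start of Met inside its stretch. The positions are chr6:17463707-17463956 (plus) for Met, chr1:77515089-77515338 (minus) for Epha4 and chr4:141300971-141301220 (plus) for Epha2.
Met: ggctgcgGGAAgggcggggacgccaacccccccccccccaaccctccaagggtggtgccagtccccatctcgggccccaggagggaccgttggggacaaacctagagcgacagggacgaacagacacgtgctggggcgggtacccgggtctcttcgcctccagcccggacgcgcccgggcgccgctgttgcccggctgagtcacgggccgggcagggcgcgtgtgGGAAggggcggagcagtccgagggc
Epha4: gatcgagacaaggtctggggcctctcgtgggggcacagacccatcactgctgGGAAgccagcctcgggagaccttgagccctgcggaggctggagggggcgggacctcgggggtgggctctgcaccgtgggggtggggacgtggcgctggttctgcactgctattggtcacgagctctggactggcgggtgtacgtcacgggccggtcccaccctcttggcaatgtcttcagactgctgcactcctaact
Epha2: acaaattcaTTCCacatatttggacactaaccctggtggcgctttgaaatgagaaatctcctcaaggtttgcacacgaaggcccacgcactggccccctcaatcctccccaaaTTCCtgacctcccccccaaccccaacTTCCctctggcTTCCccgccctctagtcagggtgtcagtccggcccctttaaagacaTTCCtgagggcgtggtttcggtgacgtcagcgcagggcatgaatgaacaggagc

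RefSeq windows were matched for 7 members: Met, Axl, Egfr, Erbb2, Igf1r, Epha2 and Epha4. On both strands together GGAA occurred 2 times in the Met window, 1 time in that of Epha4 and 5 times in that of Epha2, all 5 on the opposite strand. The windows of Axl, Egfr, Erbb2 and Igf1r held it 3, 2, 2 and 1 times. Of 32851 windows of the same length 93.4% hold it, with a median of 3, so the windows of the members called lower held no more of it than most. The longer ETS letters CCGGAAGT, which contain the core, are in 2.88% of all windows and in none of the 7. The AP-1 letters TGANTCA, which read the same on both strands, occur 1 time in the Met window, as tgagtca, in 6.75% of all windows, and in none of the other 6. That tgagtca and the later GGAA of the Met window lie before the RefSeq start but after the GENCODE start of Met. These are matches of letters and not evidence of binding.

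Epha4 (ENSMUSG00000026235; chromosome 1, 77367185 to 77515088, minus strand) binds ephrins of both the A and B class. Its low level makes its call depend on the pseudocount: the difference was -1.39 with 1 TPM added, -1.96 with 0.1 TPM added and -0.64 with 5 TPM added. Epha2 (ENSMUSG00000006445), a receptor for A-class ephrins that is common in epithelial tumours, was at 82.0 TPM in shETV4 cells and 82.3 TPM in shRFP cells, a difference of -0.01 whose sign turns with the scaling. The pair of Eph receptors therefore stood far apart in level, Epha2 above Epha4 in both libraries, and only Epha4 was past 2-fold.

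Fgfr1 and Axl were the highest of all 58 receptor tyrosine kinase genes in both libraries. Fgfr1 (ENSMUSG00000031565), a receptor for fibroblast growth factors, was at 339.9 TPM in shETV4 cells and 221 TPM in shRFP cells. Its difference of 0.62 was within 2-fold and the highest of the 29 measured receptors on the log2(TPM + 1) scale. After GC adjustment it was 0.52, with Mertk above it at 0.53, and Fgfr3 stood above it with 0.1 TPM added in place of 1. Axl (ENSMUSG00000002602), the receptor for GAS6 and a gene often high in mesenchymal-like tumour cells, was at 245 TPM in shETV4 cells and 212 TPM in shRFP cells. Together they made up 48.2% of the summed TPM of the 58 genes in shETV4 cells and 40.8% in shRFP cells.

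Pdgfrb (ENSMUSG00000024620), a receptor for PDGF typical of mesenchymal cells, was at 77.2 TPM in shETV4 cells and 59.5 TPM in shRFP cells. Its relative Pdgfra was at 23.4 TPM in shETV4 cells and 17.5 TPM in shRFP cells. Both lay within 2-fold, at differences of 0.37 and 0.40. Of the other measured genes of the stellate cell and fibroblast list, Col3a1 (0.55), Dcn (0.46) and Col1a1 (0.19) also had differences above 0, and Acta2 (-0.94) was the 1 of 6 below 0; the part of cell composition in the Pdgfrb value was not tested.

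The ErbB receptors were low beside these. Egfr (ENSMUSG00000020122), the receptor for EGF and its relatives, was at 12.7 TPM in shETV4 cells and 12.3 TPM in shRFP cells. Erbb2 (ENSMUSG00000062312), which binds no ligand of its own and pairs with the other ErbB receptors, was at 23.9 TPM in shETV4 cells and 17.6 TPM in shRFP cells. Erbb3 (ENSMUSG00000018166), a receptor for neuregulins with a weak kinase domain, was at 0.06 TPM in shETV4 cells and 0.07 TPM in shRFP cells, and Erbb4 was listed at 0 in both. The 4 ErbB genes summed to 36.7 TPM in shETV4 cells and 30.02 TPM in shRFP cells, nearly all of it Egfr and Erbb2.

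Igf1r (ENSMUSG00000005533), the receptor for insulin-like growth factors, was at 12.1 TPM in shETV4 cells and 14.9 TPM in shRFP cells, a difference of -0.28 that shrank to -0.10 after GC adjustment. The related insulin receptor gene Insr was at 8.48 TPM in shETV4 cells and 9.03 TPM in shRFP cells. By level, the members ran in shETV4 cells from Fgfr1 through Axl, Epha2, Pdgfrb, Erbb2, Egfr, Igf1r, Met and Epha4 to Erbb3. In shRFP cells the order was Fgfr1, Axl, Epha2, Pdgfrb, Met, Erbb2, Igf1r, Egfr, Epha4 and Erbb3. Without replicates it cannot be said which neighbours in these orders differ beyond their spread.

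The list of the other 48 mouse receptor tyrosine kinase genes held no called gene. Of these 20 were measured and none was called, beside 7.06% of all measured genes called lower and 3.36% higher. The median of the 20 was -0.07, and 12 of the 48 were listed at 0 in both libraries. The highest were Ptk7 (85.7 TPM in shETV4 cells and 67.5 TPM in shRFP cells), Ryk (62.6 and 93.3 TPM), Ddr1 (74.2 and 53.1 TPM) and Ephb4 (55.6 and 46.1 TPM), of which Ptk7 and Ryk take part in Wnt signalling and Ddr1 is a collagen receptor. The differences farthest from 0 belonged to Ddr2, another collagen receptor, at -0.97, Styk1 at -0.89, Fgfr3 at 0.61 and Ryk at -0.57. By plain ratio Ddr2 and Styk1 were 2.02-fold and 2.16-fold lower and Fgfr3 2.13-fold higher, and these were called with 0.1 TPM added in place of 1. After GC adjustment Ddr2, Styk1 and Ryk were at -0.67, -0.36 and -0.30, and Fgfr3 at 0.49. Mst1r, the closest relative of Met, was at 0.06 TPM in shETV4 cells and 0.11 TPM in shRFP cells, and the Axl relatives Tyro3 and Mertk were at 12.1 and 6.01 TPM in shETV4 cells and 12.7 and 4.85 TPM in shRFP cells. The 10 members summed to 799.8 TPM in shETV4 cells and 644 TPM in shRFP cells, 1.24-fold, and the 48 others to 413 and 417 TPM. Of the members' sums, Fgfr1 and Axl gave 584.6 TPM in shETV4 cells and 433 TPM in shRFP cells. Among the 9 measured members 5 had differences above 0 and 4 below 0, with a median of 0.04.

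**Figure D3:**
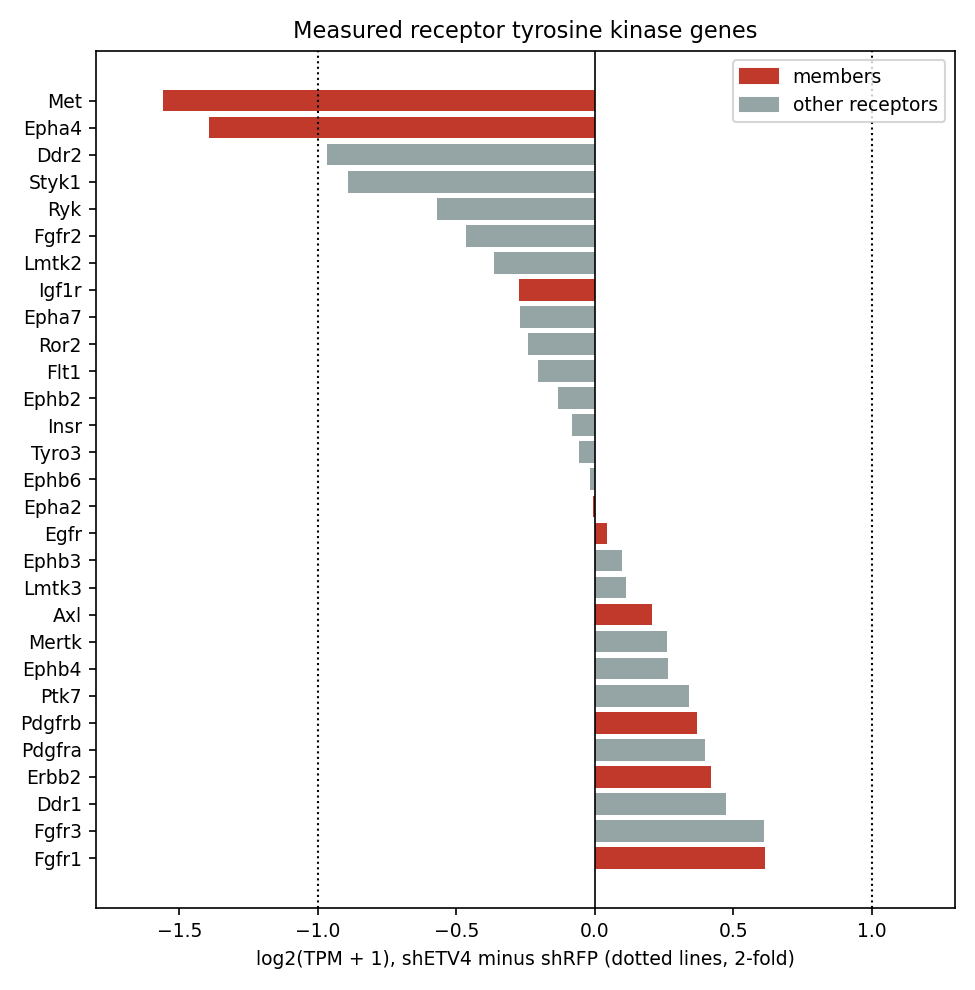
Differences (log2(TPM + 1), shETV4 minus shRFP) of the 29 measured receptor tyrosine kinase genes from lowest to highest, the members in red and the other receptors in grey, with dotted lines at 2-fold. Met at -1.56 and Epha4 at -1.39 are the bars past a dotted line, and Ddr2 at -0.97 comes nearest after them.

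Among 46 ligand genes of these receptors 22 were measured, and 1 was called higher and 1 lower, 4.55% each, which is near the 3.36% and 7.06% of all measured genes. Both bind ErbB receptors. Areg, which encodes the EGF receptor ligand amphiregulin, was called higher at 3.51 TPM in shETV4 cells against 0.57 TPM in shRFP cells. Nrg1, which encodes the neuregulin that ERBB3 and ERBB4 bind, was called lower at 4.36 TPM in shETV4 cells against 12.1 TPM in shRFP cells, 2.77-fold. The differences were 1.52 and -1.29, and 1.73 and -1.21 after GC adjustment. With 5 TPM added in place of 1, Areg was at 0.61 and Nrg1 at -0.87, both within 2-fold.

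The remaining ErbB ligands were not called or not measured. Hbegf was at 11.5 TPM in shETV4 cells and 14.0 TPM in shRFP cells, Ereg at 2.84 and 2.31 TPM, Tgfa at 1.38 and 2.01 TPM, Nrg2 at 0.50 and 1.42 TPM, and Egf at 0.61 and 1.24 TPM. Nrg2 and Egf were 2.84-fold and 2.03-fold lower by plain ratio, at levels where the added 1 TPM weighs most. Btc, Epgn and Nrg4 were below 1 TPM in both, and Nrg3 was listed at 0 in both. Hgf, the ligand of Met, was at 0.22 TPM in shETV4 cells and 0.42 TPM in shRFP cells, so it was measured in neither library. The genes of proteases that activate HGF, Hgfac, St14 and Hpn, were also below 1 TPM in both, while Plau, which can act on HGF as well, was at 7.52 TPM in shETV4 cells and 8.70 TPM in shRFP cells.

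Gas6, the ligand of Axl, was the most abundant of the ligand genes. It was at 271 TPM in shETV4 cells and 330.2 TPM in shRFP cells, and Pros1, the related protein S, at 10.2 and 14.3 TPM. The differences of Gas6 and Pros1 were -0.28 and -0.45, and -0.40 and 0.15 after GC adjustment. Igf2 was at 123 TPM in shETV4 cells and 116 TPM in shRFP cells, but 64.5% of its exonic sequence is shared with exons of other genes and the strand setting of the counting is unknown. Igf1 was below 1 TPM in both. Of 18 fibroblast growth factor genes 2 were measured, and 8 were listed at 0 in both. Fgf7 was at 15.5 TPM in shETV4 cells and 22.7 TPM in shRFP cells, a difference of -0.52, and 0.28 after GC adjustment. Fgf1 was at 1.52 and 0.35 TPM (4.34-fold, and 0.90 on the log2(TPM + 1) scale), and 0.89 after GC adjustment.

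Among the PDGF genes Pdgfc was at 20.6 TPM in shETV4 cells and 22.4 TPM in shRFP cells. Pdgfa was at 5.56 and 9.86 TPM and Pdgfb at 2.51 and 2.0 TPM, and Pdgfd was listed at 0 in both. The differences of Pdgfc, Pdgfa and Pdgfb were -0.12, -0.73 and 0.23, and 0.41, -0.91 and 0.04 after GC adjustment. Of the 8 ephrin genes 7 were measured and 6 of these had a difference below 0, beside 7552 of all 12951 measured genes; none was called, and Efna1, at -0.01, turns above 0 when the libraries are rescaled. The widest was Efna5, at 9.39 TPM in shETV4 cells and 17.9 TPM in shRFP cells, followed by Efnb2 at 8.48 and 13.8 TPM. Efna4, Efnb1 and Efna1 were at 17.8, 18.8 and 13.0 TPM in shETV4 cells and 20.1, 20.5 and 13.1 TPM in shRFP cells. Transcripts of ligands of both Eph receptors were therefore present in each library, and their proteins were not measured.

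**Figure D4:**
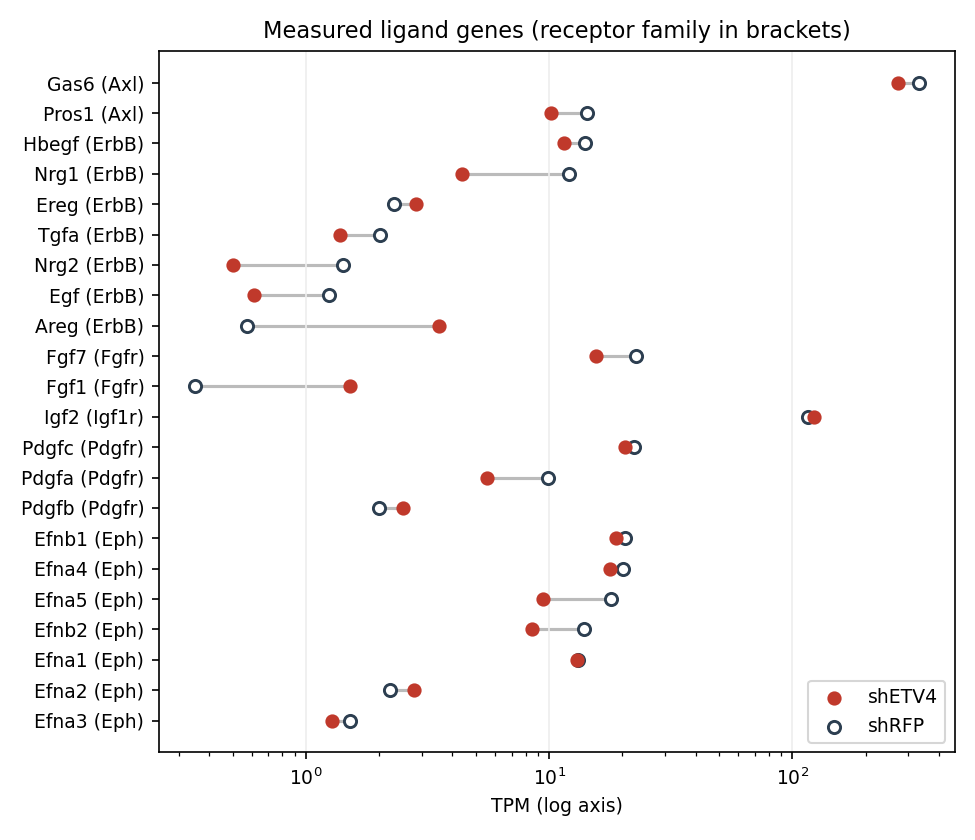
TPM of the 22 measured ligand genes on a log axis, grouped by the receptor family they bind, filled points shETV4 and open points shRFP, 1 library each. Areg lies higher in shETV4 cells (3.51 TPM against 0.57 TPM) and Nrg1 lower (4.36 TPM against 12.1 TPM), and Gas6 is the highest.

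Proteins that hold or free ligands, and co-receptors, gave no called gene. Over all measured genes 7.06% were called lower and 3.36% higher. Of 17 genes of ligand activation and binding 12 were measured, with a median of 0.28, and 0.13 after GC adjustment. The IGF-binding protein genes Igfbp4 and Igfbp7 were at 519 and 256 TPM in shETV4 cells and 479 and 202 TPM in shRFP cells. Igfbp6 was at 101 TPM in shETV4 cells and 63.8 TPM in shRFP cells, and Igfbp3 and Igfbp5 differed in opposite directions, at 0.78 and -0.68. Igf2r, which clears IGF2, was at 155 TPM in shETV4 cells and 125 TPM in shRFP cells. Adam10, a sheddase of membrane-bound ligands, was at 29.5 and 45.5 TPM. Its difference was -0.61, and -0.07 after GC adjustment. Of 14 co-receptors 12 were measured with a median of 0.07, and 0.06 after GC adjustment. Cd44, a partner of Met, was at 215 TPM in shETV4 cells and 221 TPM in shRFP cells, and Plxnb2, a plexin, at 215.5 and 192 TPM. The syndecan genes Sdc1, Sdc4 and Sdc2 had differences of 0.19, 0.39 and -0.42, and Gpc1 0.45. After GC adjustment these 4 were at 0.003, 0.40, 0.33 and 0.26, so Sdc2 turned above 0. Nrp1, a semaphorin and VEGF co-receptor, was at 7.09 TPM in shETV4 cells and 15.1 TPM in shRFP cells. That is 2.13-fold lower by plain ratio and -0.99 on the log2(TPM + 1) scale, so it was not called, and it was the 1 co-receptor called with 0.1 TPM added.

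Of 29 adaptor and effector genes 28 were measured and 1, Crk, was called lower, which is 3.57% and below the share of all genes. Crk, an adaptor that binds phosphorylated docking proteins, was at 15.1 TPM in shETV4 cells and 48.1 TPM in shRFP cells, a difference of -1.60 and -1.67 after GC adjustment. Gab1, the docking protein of Met, was at 10.8 TPM in shETV4 cells and 18.6 TPM in shRFP cells, while Grb2, which links receptors to RAS, was at 70.1 and 62.0 TPM. Shc1 had the highest difference of the list, 0.61, at 119 TPM in shETV4 cells and 77.5 TPM in shRFP cells. Sos1, Nck1 and Frs3 had differences of -0.83, -0.80 and -0.77, and -0.24, -0.21 and -0.95 after GC adjustment. Akt1, Pik3r2 and Grb10, the most abundant beside Shc1, had differences of 0.17, 0.09 and -0.43, and 0.02, -0.03 and -0.42 after that adjustment. The median of the 28 was -0.28, and -0.11 after GC adjustment.

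Of 21 genes that restrain or sort receptors 20 were measured and 4 were called lower, 20.0% beside 7.06% of all genes, and none higher. Cbl, the ubiquitin ligase that sends Met and EGFR to lysosomes, was at 5.51 TPM in shETV4 cells and 16.4 TPM in shRFP cells. Cav1, which encodes the coat protein of caveolae, was at 56.8 TPM in shETV4 cells and 130.0 TPM in shRFP cells. Cd2ap, an endocytic adaptor that binds CBL, was at 4.50 TPM in shETV4 cells and 15.0 TPM in shRFP cells. After GC adjustment Cbl (-1.22) and Cav1 (-1.20) were past 2-fold, while Cd2ap (-0.75), which is poor in GC at 38.5%, was not. After that adjustment 2 of the 20 were called lower, beside 2.31% of all genes. The median difference of the list went from -0.35 to -0.07. The median GC content of the list was 47.5%, beside 50.7% over all measured genes. Before the adjustment 13 of the 20 had differences below 0 and 7 above 0. Eps15 was at 9.83 TPM in shETV4 cells and 20.2 TPM in shRFP cells, 2.05-fold lower by plain ratio. Its difference of -0.97 was within 2-fold and was -0.40 after GC adjustment. The abundant Ptpn1 and Lrig1 had differences of 0.11 and 0.09, and Errfi1, a feedback inhibitor of ErbB receptors, 0.18. Hgs was at 0.31, with 97.2% of its exonic sequence shared with other genes.

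Cav1 is also the nearest protein-coding gene before Met on chromosome 6. Cav2, the second before it, was called lower at 5.23 TPM in shETV4 cells and 14.0 TPM in shRFP cells (-1.26, and -0.67 after GC adjustment). On the other side Capza2 was at 44.7 TPM in shETV4 cells and 76.5 TPM in shRFP cells (-0.76, and close to 0 after GC adjustment), and St7 at 15.1 and 14.5 TPM. Of the genes beside Epha4 none was called: Pax3 was at 24.3 TPM in shETV4 cells and 25.9 TPM in shRFP cells, Slc4a3 at 6.22 and 5.26 TPM, Stk11ip at 19.9 and 10.5 TPM, and Sgpp2 below 1 TPM in both. The 3 protein-coding genes whose pair of log2(TPM + 1) values lay nearest to that of Met were Mdn1, Cip2a and Terf1, at distances of 0.07, 0.08 and 0.09; with 2 libraries this says only that their levels were alike.

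**Figure D5:**
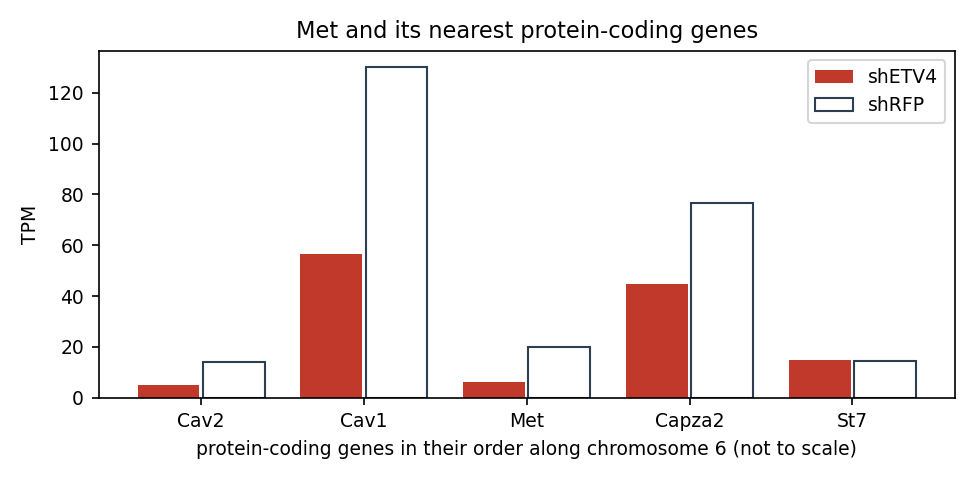
TPM of Met and the 2 nearest protein-coding genes on each side of it along chromosome 6, filled bars shETV4 and open bars shRFP, 1 library each. Cav2, Cav1 and Met are lower in shETV4 cells by more than 2-fold, Capza2 by less, and St7 is at 15.1 TPM in shETV4 cells and 14.5 TPM in shRFP cells.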

How the data were processed

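The authors deposited 1 TPM value per gene and library, with 2 decimals. Headers name no unit; it was read from the totals, 999870.3 for shETV4 and 999999.77 for shRFP. Per the submitters' processing notes HISAT2, RSEM and GRCm38.p4 were used, in roles not stated; the annotation, the strand setting and any filters are not stated there, nor whether the column suffix _2 marks a run. Of 55640 records 153 without a symbol (2.67% of the TPM in shETV4 and 1.13% in shRFP) were left out, and where a symbol had several records (114 symbols) the one with the higher summed TPM was kept. Positions, biotype, exon overlap and medians of transcript GC content came from GENCODE M21, GC for 12932 of 12951 measured genes, and promoter windows from RefSeq. The GC adjustment subtracts the median difference over 50 GC bins. Alternatives changed the pseudocount, filter, scale, fold, gene set and record choice.

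Members and lists were chosen with earlier results of these data known. Named were the members, Etv4, called genes, those highest in level or difference on each list, ligands, neighbours and nearest genes; Gab1, Grb2, Errfi1, Plau, Insr, Pdgfra, Mst1r, Tyro3 and Mertk were added for their relation to a member. One gene counted on a list is not reported here. The procedure was tested on data simulated around shRFP levels of 5 TPM or more, with an assumed spread. That test does not cover lower genes such as Epha4 and Areg, or the unknown spread between cultures. Python 3.11.15, numpy 2.4.6, pandas 2.3.3 and matplotlib 3.10.9 were used.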

Additional observations from a re-analysis of the deposited data

How the results depend on the processing

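Over all genes the count called higher was 435 and the count called lower 914. With pseudocount 0.1 they were 670 and 1454, with pseudocount 5 they were 165 and 266, at 1.5-fold 1113 and 2585, and at 3-fold 160 and 161. The count called higher was 250 at 5 TPM or more and 245 among protein-coding genes, and after GC adjustment 517 genes were called higher and 299 lower, which turns the balance of the directions. Of the members 2 were called lower; the count was 1 with pseudocount 5 and 1 at 5 TPM or more, since Epha4 stays below 5 TPM, and 0 at 3-fold, where Met at -1.56 falls just inside on the log2(TPM + 1) scale. At 1.5-fold 1 member, Fgfr1, was called higher. Over all pathway lists together 1 gene was called higher and 6 lower: with pseudocount 0.1 these were 3 and 11, at 1.5-fold 6 and 22, at 3-fold 0 and 1, and the higher count was 0 with pseudocount 5 and 0 at 5 TPM or more.

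Across 8 alternatives the difference of Met ranged from -1.69 to -1.17. That of Epha4 ranged from -1.96 to -0.64 over those that could be computed. The trimmed-mean shift between libraries was -0.08 and the median ratio gave -0.07; the calls of the members were the same with either divided out. No paired analysis was possible because each group has 1 library. With no replicates and no depth in TPM, the error of low genes such as Epha4, Areg and Erbb3 cannot be given.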
